A study of Mus musculus with 6 samples.

Results

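The protocadherin genes were taken as every gene symbol in the count table that begins with Pcdh, which gave 70 of 35976 genes. They comprised 14 genes of the alpha cluster (Pcdha), 22 of the beta cluster (Pcdhb), 22 of the gamma cluster (Pcdhg) and 12 nonclustered genes that lie elsewhere. The libraries were 6 RNA-seq libraries of amygdala cells enriched for neurons, taken from male C57BL/6J mice. Both groups received an adeno-associated virus that carried Cas9 under GfaABC1D, a promoter active in astrocytes, with either a guide to the Rosa control locus (sgRosa, 3 libraries) or a guide to Egfr (sgEgfr, 3 libraries). The animals of both groups underwent the same chronic stress, with restraint in a tube for 7 days, then fear conditioning for 1 day and extinction training for 3 days, so that neither group was unstressed. The enrichment was thus for neurons and not for the astrocytes in which Cas9 was expressed, and the comparison asks what the neuron-enriched cells of the amygdala express when the guide in neighbouring astrocytes was sgEgfr instead of sgRosa. The age of the animals and whether tissue of several animals was pooled for a library are not given in the sources used here.

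Protocadherins are the largest group of the cadherin superfamily, transmembrane proteins whose extracellular cadherin repeats bind across the contact between cells. In the alpha and gamma clusters each gene is a variable exon with its own promoter, spliced to constant exons shared by the cluster, and each neuron switches on a few of these promoters by chance, with the chromatin protein CTCF and the cohesin ring bringing a distant enhancer to the chosen promoter. The resulting combination of isoforms lets the branches of a neuron recognise and avoid those of the same neuron. The C-type isoforms, at the downstream end of the alpha and gamma clusters, are not subject to this random choice and are expressed broadly, and Pcdhac2 is known as the main isoform of serotonergic neurons. The beta genes have no constant exons, and their proteins work in complexes with isoforms of the other clusters. The nonclustered protocadherins, most of them of the delta class, are expressed in particular regions and cell types and act in axon growth, cell sorting and synapse formation.

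Total counts per library ranged from 2348897 to 10152812, and protocadherin genes took 2982 to 13296 counts of a library, or 0.101 to 0.135% of it. Levels are given as CPM, the count of a gene relative to the library's total after TMM scaling, which evens out the bulk of genes between libraries. A gene with 3 counts, the level up to which a count of 0 can still occur by sampling, stood at 0.270 CPM in the deepest library and at 1.25 CPM in the shallowest. The guided gene, Egfr, was counted 1, 26 and 23 times with sgRosa and 6, 18 and 6 times with sgEgfr. The difference did not pass the test (log2 fold change -0.64, 95% interval -2.98 to 1.71, edgeR quasi-likelihood test, adjusted p = 0.917) and, in cells enriched for neurons, is not a direct check of editing in astrocytes. The 10 astrocyte markers were nevertheless all detected in every library, with a summed level of 757.6 to 1375 CPM in sgRosa and 405.6 to 1507 CPM in sgEgfr libraries. Neuronal marker genes were detected in every library, but the 10 oligodendrocyte markers had a summed level of 22650 to 72660 CPM against 1959 to 4842 CPM for the 12 neuronal markers. The 10 choroid plexus markers summed to 3582 CPM in sgRosa replicate 3 and 2438 CPM in sgEgfr replicate 1 and to 10.9 to 52.9 CPM in the other libraries. In such mixed RNA, fewer cells of a type and less RNA per cell cannot be told apart. The labels number the libraries without saying that they came from separate animals, so p-values measure only the spread between these libraries.

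No protocadherin gene passed the test for a difference between sgEgfr and sgRosa. Of the 70 genes, 34 had enough counts to be tested (1 alpha, 11 beta, 11 gamma and 11 nonclustered genes), and 0 passed an adjusted p of 0.05 in edgeR's quasi-likelihood test, as did 0.0% of all 13159 tested genes. At an unadjusted p under 0.05 there were again 0 protocadherin genes, against 811 genes or 6.16% of all tested. DESeq2 called 0.251% of all tested genes and 0 protocadherin genes, but gave an adjusted p for 8 of the 34 and left it undefined for the other 26. Over all 13159 tested genes it left the adjusted p undefined for 5114. In the limma-voom fit, which gave each library its own quality weight, 0 passed. Pcdh7 and Pcdh9 had an unadjusted p under 0.05 there, as had 1978 of all 13159 tested genes. The smallest p of a protocadherin gene in edgeR belonged to Pcdhga8, at rank 1244 of all tested genes (adjusted p = 0.781). The fitted log2 fold change was positive for 20 and negative for 14 of the 34, with a median of 0.031, where 46.3% of all tested genes were positive with a median of -0.0382. An absolute log2 fold change above 0.5 was found for 6 of the 34, or 17.6%, against 25.2% of all tested genes.

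**Figure D1:**
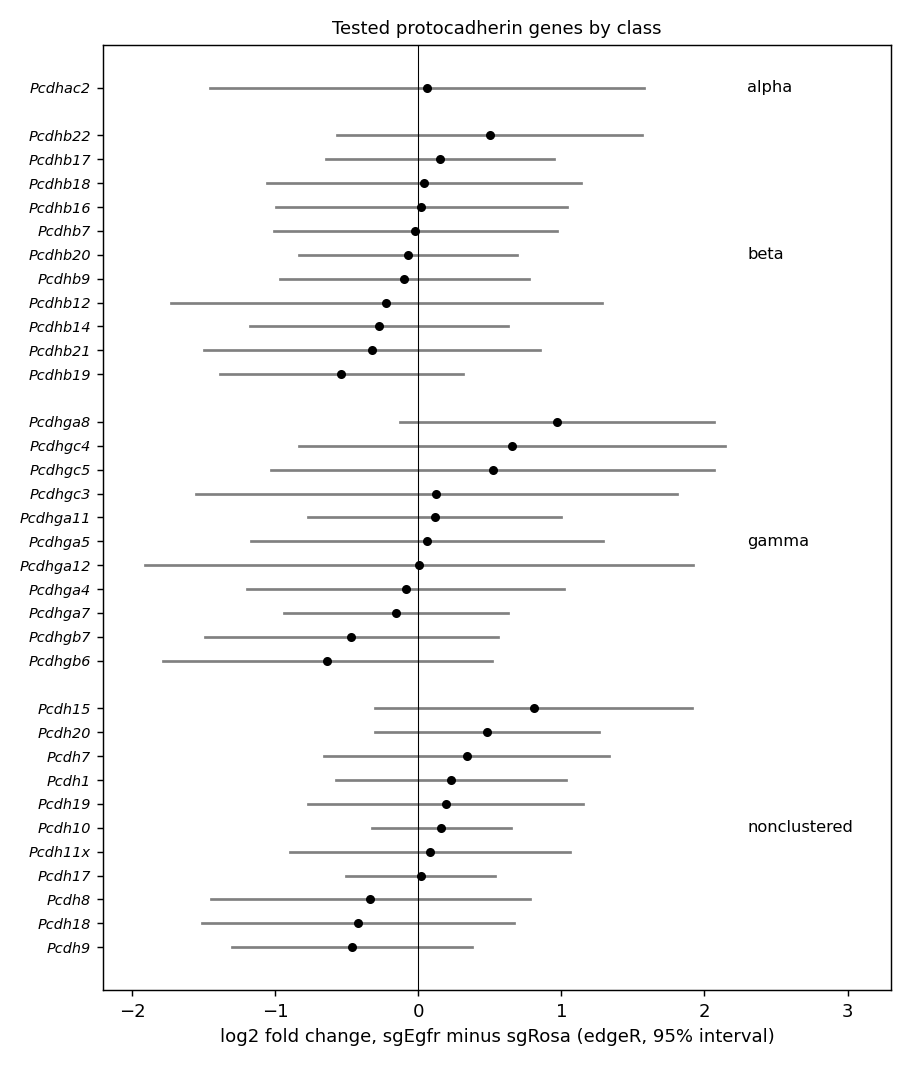
Log2 fold change of each tested protocadherin gene, sgEgfr minus sgRosa, with the 95% interval from edgeR on the x axis and genes grouped by class. Every interval includes 0, and the points run from -0.63 for Pcdhgb6 to 0.97 for Pcdhga8.

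The width of the intervals sets what can be said of single genes. For 7 genes the 95% interval lay within a 2-fold change in either direction. These were Pcdhb9, Pcdhb17, Pcdhb20, Pcdhga7, Pcdhga11, Pcdh10 and Pcdh17, 5 clustered and 2 nonclustered. For the other 27 tested protocadherin genes a 2-fold difference in at least one direction was inside the interval. Of all 13159 tested genes, 5262 had an interval within a 2-fold change. The median standard error was 0.44 for the tested protocadherin genes and 0.34 for all tested genes. The 36 genes that were not tested had at most 61 counts in any library, a value reached by Pcdha12 in sgRosa replicate 3, and 4 of them (Pcdha4, Pcdha6, Pcdha7 and Pcdhb1) had 0 counts in every library.

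The clustered genes lie in tandem on chromosome 18 of the mm10 build, with the alpha cluster at chr18:36930184-37187661, the beta cluster at chr18:37264938-37524479 and the gamma cluster at chr18:37661793-37841873. In the GENCODE annotation of that assembly, exon sequence not shared with another protocadherin gene made up 45.1 to 62.0% of an alpha gene and 33.2 to 72.2% of a gamma gene, mainly since the constant exons belong to every gene of the cluster. The lowest share was that of Pcdhga4, with 1570 unshared of 4727 exon bases against 2613 of 4732 for Pcdhga10. Pcdhga4 thus also shares exon sequence beyond the constant exons. For beta genes the share was 90.3% for Pcdhb21, 93.1% for Pcdhb22 and 100% for every other. Counts of alpha and gamma genes therefore rest mainly on the variable exons, unless reads in shared exons were counted, a setting that is not given in the sources used here. RefSeq also holds readthrough genes (Gm37013, Gm38666 and Gm38667) that start at Pcdha4, Pcdha6 and Pcdha7, the same 3 alpha genes that had 0 counts, and run to the end of the gamma cluster. They had 0, 1 and 1 counts in all libraries together, and a variable exon that belongs to 2 genes cannot be assigned by a counter that leaves out ambiguous reads. The zeros of Pcdha4, Pcdha6 and Pcdha7 are therefore not read as absence of their transcripts. Because of these differences in length, the order of levels between genes is given per kilobase of unshared exon, and plain CPM describes single genes, sums and shares of counts. On the opposite strand, annotated exons overlap the unshared exons of 17 protocadherin genes, and without the strand setting of the counting the reads of such pairs cannot be told apart. The overlapped share was 52.4% for Pcdhga11, named above for its interval. Among genes whose values follow, it was 46.1% for Pcdhgc3 (by BC037039), 29.7% for Pcdhgb7, 21.5% for Pcdha12 and 21.1% for Pcdh7 (by 4932441J04Rik). Lower shares were 17.3% for Pcdhga7, 16.6% for Pcdhga8 (by Gm37165), 9.6% for Pcdh8, 1.0% for Pcdh10 and 0.5% for Pcdh19.

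**Figure D2:**
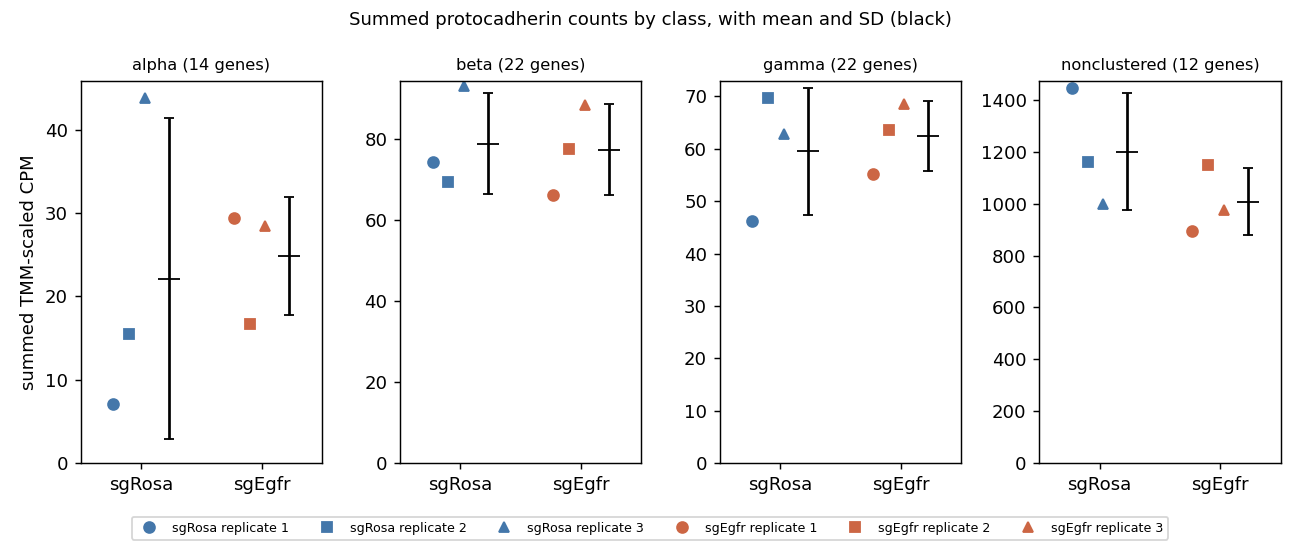
Summed CPM (TMM-scaled) of all genes of each class in each library, with the mean and SD of each group in black and 1 panel per class. The groups overlap in every class, and the alpha cluster has the widest spread among the sgRosa libraries.

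Summed over all members, no class separated the groups. The beta cluster stood at 78.8 ± 12.5 CPM in sgRosa and 77.4 ± 11.2 CPM in sgEgfr libraries (SD, n = 3), the gamma cluster at 59.5 ± 12.1 and 62.5 ± 6.74 CPM, the alpha cluster at 22.1 ± 19.3 and 24.9 ± 7.06 CPM, and the nonclustered genes at 1201 ± 226 and 1007 ± 129 CPM. The ratios of sgEgfr to sgRosa were 0.982, 1.05, 1.12 and 0.838 in that order. The alpha ratio rested on single libraries: on the log2 scale it was 0.17 with all libraries, 1.15 without sgRosa replicate 3 and -0.25 without sgRosa replicate 1. The nonclustered sum was mostly Pcdh9. Without it the remaining 11 genes stood at 340.5 ± 94.8 CPM in sgRosa and 383.6 ± 57.2 CPM in sgEgfr libraries.

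The alpha cluster was the smallest and the most variable class. Its sum was 7.03, 15.4 and 43.8 CPM in sgRosa replicates 1, 2 and 3 and 29.4, 16.7 and 28.4 CPM in the sgEgfr replicates of the same numbers. The sgRosa libraries thus differed 6.24-fold among themselves and spanned the whole range of the sgEgfr libraries. Most alpha counts came from Pcdhac2, the C-type isoform at the downstream end of the cluster, which held 55.5 ± 11.8% of them in sgRosa and 52.8 ± 8.68% in sgEgfr libraries (SD, n = 3; range 44.0 to 67.6%). Pcdhac2 was the alpha gene with enough counts to test. It had 3.09, 10.4 and 24.1 CPM in the sgRosa and 18.3, 7.59 and 14.4 CPM in the sgEgfr libraries. The sgRosa values enclosed all sgEgfr values, and the log2 fold change was 0.06 (95% interval -1.46 to 1.58, edgeR, adjusted p = 0.989). Without sgRosa replicate 3 the value was 1.04 (adjusted p = 0.343). By CPM the next was Pcdha12, a randomly chosen isoform, with 0.281, 2.09 and 5.49 CPM in sgRosa and 2.13, 2.23 and 3.12 CPM in sgEgfr libraries, too few counts to be tested. The other C-type isoform, Pcdhac1, was lower, with 0, 0.418 and 1.08 CPM in sgRosa and 1.07, 1.34 and 0.779 CPM in sgEgfr libraries, which was 0 to 6 counts in all libraries but sgRosa replicate 3, the deepest, with 12.

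The 11 tested genes of the beta cluster had log2 fold changes on both sides of 0, with 4 positive and 7 negative, a median of -0.07 and a range of -0.54 to 0.50. The sum was 74.2, 69.3 and 93.0 CPM in the sgRosa and 66.1, 77.6 and 88.4 CPM in the sgEgfr libraries. Pcdhb20 and Pcdhb7 had the most counts of the cluster. Pcdhb20 had 15.5, 9.61 and 15.4 CPM in sgRosa and 8.74, 15.4 and 14.8 CPM in sgEgfr libraries, with 1 low library in each group (log2 fold change -0.07, 95% interval -0.83 to 0.69, edgeR, adjusted p = 0.971). For Pcdhb7 the values were 10.1, 6.68 and 16.3 CPM in sgRosa and 9.38, 7.59 and 16.8 CPM in sgEgfr libraries, nearly the same set of values in both groups (log2 fold change -0.02, 95% interval -1.01 to 0.97, edgeR, adjusted p = 0.993). Together with Pcdhb9 and Pcdhb17, a group picked after their values were seen, these genes held 48.2 to 61.7% of the beta counts of a library.

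In the beta cluster 2 low genes had groups that did not overlap. Pcdhb19 had 4.22, 4.18 and 5.04 CPM in sgRosa and 3.20, 2.68 and 3.51 CPM in sgEgfr libraries, the lower values all in sgEgfr (log2 fold change -0.54 ± 0.37 SE, 95% interval -1.39 to 0.31, edgeR, adjusted p = 0.803). Pcdhb22 had 3.09, 2.92 and 1.53 CPM in sgRosa and 3.41, 3.57 and 3.12 CPM in sgEgfr libraries, with sgRosa replicate 3 the lowest and the other 5 libraries close together (log2 fold change 0.50, 95% interval -0.57 to 1.56, edgeR, adjusted p = 0.847). Leaving out sgRosa replicate 3 gave Pcdhb22 a log2 fold change of 0.16. Across all protocadherin genes tested, 3 of 34, or 8.82%, had groups that did not overlap, the other being Pcdhga8, against 13.4% of all tested genes (5.8% higher and 7.6% lower in sgEgfr). Pcdhb14 had 4.50, 4.18 and 4.50 CPM in sgRosa and 4.26, 2.45 and 4.29 CPM in sgEgfr libraries. A single lower library, sgEgfr replicate 2, set its log2 fold change of -0.28 (edgeR, adjusted p = 0.901), which was -0.0172 without that library.

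In the gamma cluster, which holds A-type, B-type and C-type isoforms, 7 of 11 tested genes had positive and 4 negative log2 fold changes, with a median of 0.06 and a range of -0.63 to 0.97. The sign of this median did not hold, since it was negative in 4 of 6 fits that left out 1 library, with values from -0.16 to 0.15 over the 6. The sum was 46.1, 69.8 and 62.7 CPM in the sgRosa and 55.2, 63.6 and 68.6 CPM in the sgEgfr libraries. The A-type gene Pcdhga8 gave the largest log2 fold change of all tested protocadherin genes. It had 1.69, 1.67 and 2.52 CPM in sgRosa and 3.84, 2.68 and 5.84 CPM in sgEgfr libraries, from 6, 4 and 28 counts and 18, 12 and 15 counts. All sgEgfr values lay above all sgRosa values, by a small margin between 2.52 and 2.68 CPM, and the log2 fold change of 0.97 ± 0.47 SE (95% interval -0.13 to 2.07) did not pass the test (edgeR, adjusted p = 0.781). It ranged from 0.71 to 1.26 when 1 library was left out.

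The B-type genes Pcdhgb6 and Pcdhgb7 had negative log2 fold changes. Pcdhgb6 had 3.66, 7.94 and 4.50 CPM in sgRosa and 2.77, 5.13 and 1.95 CPM in sgEgfr libraries, and the groups overlapped (log2 fold change -0.63, 95% interval -1.78 to 0.51, edgeR, adjusted p = 0.822). Pcdhgb7 had 4.78, 5.43 and 2.61 CPM in sgRosa and 2.77, 3.35 and 2.73 CPM in sgEgfr libraries, with sgRosa replicate 3 the lowest of all (log2 fold change -0.47, 95% interval -1.49 to 0.55, edgeR, adjusted p = 0.848). As a share of gamma counts, B-type genes took 25.6 ± 6.84% in sgRosa and 18.1 ± 6.52% in sgEgfr libraries (SD, n = 3), ranges that overlapped. A-type genes took 49.4 ± 10.03% and 48.7 ± 5.42%.

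The C-type genes of the gamma cluster varied more between libraries of 1 group than between the groups. Pcdhgc3, an isoform made by many cell types, had 1.69, 15.9 and 5.13 CPM in sgRosa and 8.32, 11.2 and 3.90 CPM in sgEgfr libraries. Its lowest and its highest library were both sgRosa libraries (log2 fold change 0.13, 95% interval -1.56 to 1.81, edgeR, adjusted p = 0.976), and without sgRosa replicate 2 the log2 fold change was 1.19. Pcdhgc4, the isoform required for the survival of many interneurons, had 1.12, 5.43 and 2.16 CPM in sgRosa and 2.35, 4.24 and 6.62 CPM in sgEgfr libraries. The groups overlapped (log2 fold change 0.66, 95% interval -0.83 to 2.14, edgeR, adjusted p = 0.855), and leaving out sgRosa replicate 2 gave 1.34, leaving out sgEgfr replicate 3 gave 0.30. Pcdhgc5 had 1.97, 2.92 and 11.5 CPM in sgRosa and 7.89, 4.91 and 12.9 CPM in sgEgfr libraries, with the highest sgRosa value in replicate 3 (log2 fold change 0.52, 95% interval -1.03 to 2.07, edgeR, adjusted p = 0.890). Without that library it was 1.79 (adjusted p = 0.158), in a fit where 2746 of all 13447 tested genes had an unadjusted p under 0.05 (edgeR). C-type genes together held 25.0 ± 12.9% of gamma counts in sgRosa and 33.2 ± 1.13% in sgEgfr libraries, and the lowest share, 10.4% (95% Wilson interval 6.57 to 16.0%), was in sgRosa replicate 1.

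**Figure D3:**
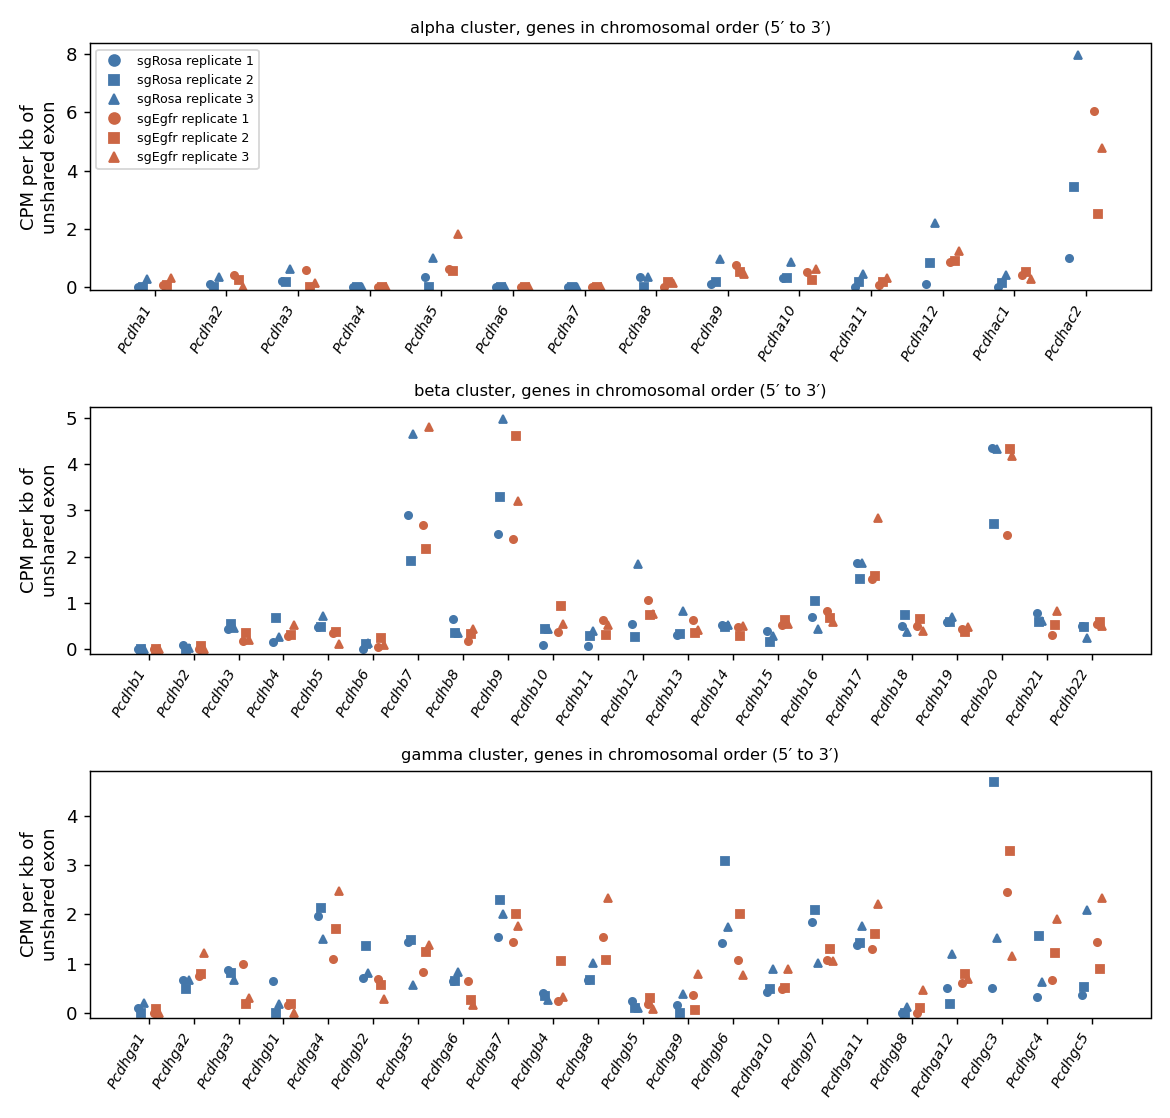
CPM per kilobase of unshared exon for every gene of the alpha, beta and gamma clusters in chromosomal order, 1 point per library and 1 panel per cluster. Pcdhac2 at the downstream end of the alpha cluster and Pcdhb20, Pcdhb9 and Pcdhb7 in the beta cluster have the highest mean levels.

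Per kilobase of unshared exon, the level of single clustered genes was low and similar for the leading isoforms. Averaged over the 6 libraries, Pcdhac2 stood at 4.29 CPM per kilobase, Pcdhb20 at 3.72, Pcdhb9 at 3.48, Pcdhb7 at 3.18 and Pcdhgc3 at 2.27. These neighbours in the order overlapped widely across libraries, since Pcdhac2 alone ran from 1.02 to 7.97 and Pcdhb20 from 2.46 to 4.35 CPM per kilobase. The order also depended on the source of the lengths. By its RefSeq length Pcdhb17 stood at 2.66 instead of 1.86 CPM per kilobase, above the 2.27 of Pcdhgc3. Among the randomly chosen isoforms of the other clusters, Pcdhga7 stood at 1.84 and Pcdha12 at 1.03 CPM per kilobase. Of the 58 clustered genes, 49, 45 and 54 had at least 1 count with sgRosa and 50, 53 and 50 with sgEgfr. Brought to the same 370 clustered counts per library, the expected numbers were 47.6, 45 and 49.4 in sgRosa and 48.1, 49.3 and 48.4 in sgEgfr libraries. In the beta cluster 19 of 22 genes and in the gamma cluster 18 of 22 had a count in every library, but in the alpha cluster 4 of 14 did, namely Pcdha9, Pcdha10, Pcdha12 and Pcdhac2, which were singled out after their values were seen.

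Among the nonclustered genes, 8 of the 11 tested had positive and 3 negative log2 fold changes, with a median of 0.16 and a range of -0.47 to 0.81. Their order of level was led by Pcdh9, at 109 CPM per kilobase of exon averaged over the 6 libraries, followed by Pcdh7 at 8.67, Pcdh17 at 6.56, Pcdh19 at 4.88 and Pcdh8 at 3.57. Pcdh9 was above every other protocadherin gene in each library, from 77.7 to 169 CPM per kilobase, while Pcdh7 (4.85 to 13.2) and Pcdh17 (5.37 to 7.86) overlapped. Pcdh11x at 2.18, Pcdh10 at 2.12, Pcdh1 at 2.06, Pcdh18 at 2.04 and Pcdh20 at 1.95 CPM per kilobase could not be ordered beyond their spread. Pcdh15 at 0.543 and Pcdh12 at 0.140 were the lowest.

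**Figure D4:**
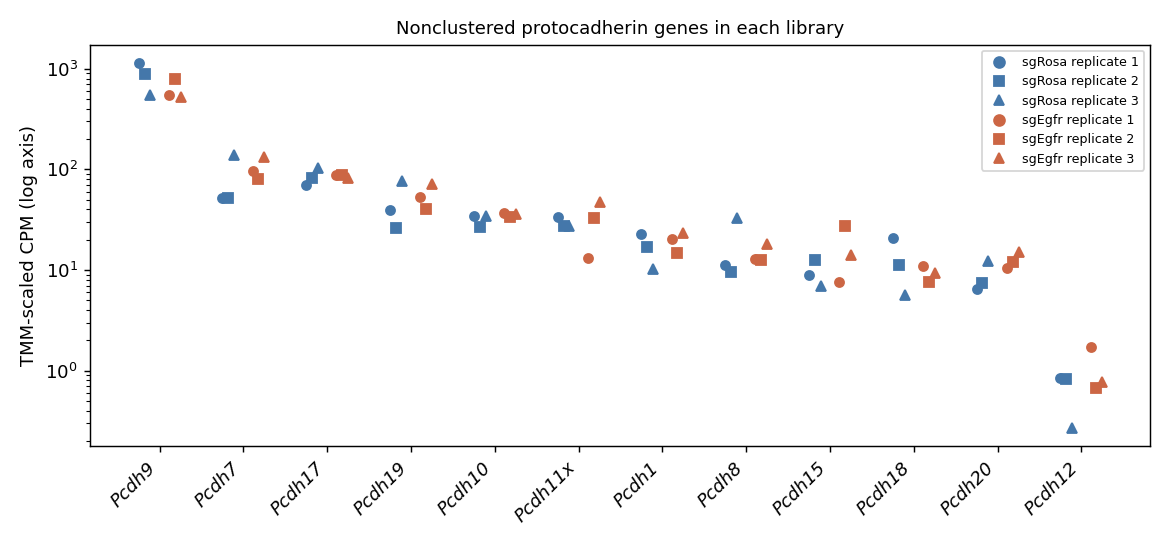
CPM (TMM-scaled, log axis) of the nonclustered protocadherin genes in each library, coloured by group with 1 marker shape per replicate number. Pcdh9 lies between 527 and 1145 CPM, above all others, and the sgRosa and sgEgfr points overlap for every gene shown.

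Pcdh9, a delta-class protocadherin of the brain that maps to chr14:93013410-93890679 of mm10, had 1145, 889 and 548 CPM in sgRosa and 544, 799 and 527 CPM in sgEgfr libraries. The groups overlapped, with sgRosa replicate 3 at the level of the lower sgEgfr libraries. The log2 fold change of -0.47 ± 0.36 SE (95% interval -1.30 to 0.37) did not pass the test (edgeR, adjusted p = 0.822). Pcdh9 made up 70.2 ± 13.3% of the nonclustered counts in sgRosa and 61.4 ± 7.84% in sgEgfr libraries (SD, n = 3).

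Pcdh7, Pcdh17, Pcdh10 and Pcdh19 are further delta-class genes. Pcdh7 had 51.5, 51.8 and 140 CPM in sgRosa and 96.6, 80.5 and 132 CPM in sgEgfr libraries (log2 fold change 0.34, 95% interval -0.66 to 1.34, edgeR, adjusted p = 0.890). Without sgRosa replicate 3, its highest library, the log2 fold change was 0.99 and the adjusted p 0.134, the smallest of any protocadherin gene in any alternative. In that fit p was low for many genes. An unadjusted p under 0.05 was found for 5 of 33 protocadherin genes and for 2746 of all 13447 tested genes (edgeR). The smallest adjusted p over all genes was 0.117 there (edgeR). For Pcdh19, a gene whose human counterpart underlies an X-linked epilepsy, sgRosa replicate 3 was likewise the highest of all 6 libraries. Pcdh19 had 39.4, 25.9 and 77.2 CPM in sgRosa and 52.9, 40.2 and 70.9 CPM in sgEgfr libraries (log2 fold change 0.19, 95% interval -0.77 to 1.15, edgeR, adjusted p = 0.941). Pcdh17 and Pcdh10, both of which recruit the WAVE complex of actin assembly, were the most precisely measured. Pcdh17 had 69.7, 82.3 and 102 CPM in sgRosa and 87.9, 87.2 and 82.2 CPM in sgEgfr libraries (log2 fold change 0.02, 95% interval -0.50 to 0.54, edgeR, adjusted p = 0.992). Pcdh10 had 34.3, 26.7 and 34.5 CPM in sgRosa and 37.3, 33.5 and 36.2 CPM in sgEgfr libraries (log2 fold change 0.16, 95% interval -0.33 to 0.65, edgeR, adjusted p = 0.892). For both genes the interval leaves no room for a 2-fold difference between the groups.

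Pcdh8, also called arcadlin, is induced by neuronal activity and takes part in the removal of cadherin from synapses. It had 11.2, 9.61 and 32.8 CPM in sgRosa and 12.8, 12.5 and 18.3 CPM in sgEgfr libraries, so that sgRosa replicate 3 alone put the sgRosa mean above the sgEgfr mean (log2 fold change -0.33, 95% interval -1.45 to 0.78, edgeR, adjusted p = 0.902). Without that library the log2 fold change was 0.46. Pcdh20 had 6.47, 7.52 and 12.4 CPM in sgRosa and 10.4, 12.1 and 15.2 CPM in sgEgfr libraries, with the lowest values in sgRosa and an overlap through replicate 3 (log2 fold change 0.48, 95% interval -0.30 to 1.26, edgeR, adjusted p = 0.811).

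The X-linked gene Pcdh11x had 34.03, 27.1 and 27.2 CPM in sgRosa and 13.2, 33.2 and 47.5 CPM in sgEgfr libraries, close values in sgRosa and the lowest and highest library in sgEgfr (log2 fold change 0.08, 95% interval -0.90 to 1.06, edgeR, adjusted p = 0.973). Pcdh1, which is known from airway epithelium as well as brain, had 22.8, 17.1 and 10.2 CPM in sgRosa and 20.3, 14.7 and 23.4 CPM in sgEgfr libraries (log2 fold change 0.23, 95% interval -0.58 to 1.04, edgeR, adjusted p = 0.911). Pcdh15, best known as a part of the tip link of inner-ear hair cells and expressed in oligodendrocyte precursors, had the largest nonclustered log2 fold change. It had 8.999, 12.5 and 6.93 CPM in sgRosa and 7.68, 27.2 and 14.0 CPM in sgEgfr libraries, where sgEgfr replicate 2 stood apart (log2 fold change 0.81, 95% interval -0.30 to 1.92, edgeR, adjusted p = 0.796). Without that library the value was 0.22. Pcdh18 had 20.8, 11.3 and 5.67 CPM in sgRosa and 10.9, 7.59 and 9.35 CPM in sgEgfr libraries, the highest and the lowest both in sgRosa (log2 fold change -0.42, 95% interval -1.51 to 0.67, edgeR, adjusted p = 0.879). Without sgRosa replicate 1 its log2 fold change was 0.20. Pcdh12, an endothelial protocadherin, had 2 to 8 counts per library and was not tested.

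Several of these genes varied across the libraries side by side with the cell type markers. The mean log2 CPM of the 12 neuronal markers was 6.67, 6.68 and 7.74 in sgRosa and 7.61, 7.21 and 7.88 in sgEgfr libraries, and that of the 10 oligodendrocyte markers was 11.35, 10.70 and 9.36 in sgRosa and 9.74, 10.47 and 8.93 in sgEgfr libraries. Pcdh9 was highest in sgRosa replicates 1 and 2 and sgEgfr replicate 2, the 3 libraries with the highest oligodendrocyte markers. The alpha sum was lowest in these same 3 libraries, which had the lowest neuronal markers. All 12 neuronal markers had positive and all 10 oligodendrocyte markers negative log2 fold changes, and 0 of either list passed the test (edgeR). None of the markers of these 2 lists was at 0 in any library. Of the precursor markers, 9 of 10 were tested. Their mean log2 CPM was 4.06, 4.89 and 3.98 in sgRosa and 4.37, 5.48 and 4.15 in sgEgfr libraries, highest in sgEgfr replicate 2, which also had the highest Pcdh15, and their summed level ranged from 194.5 to 365.1 CPM in sgRosa and from 203.4 to 505.0 CPM in sgEgfr libraries. The endothelial markers had a mean log2 CPM of 8.13, 7.05 and 6.13 in sgRosa and 7.10, 6.91 and 7.13 in sgEgfr libraries, with the highest and the lowest library the same as for Pcdh18. Microglial markers (9 of 9 tested positive, median log2 fold change 1.37) and red blood cell markers (6 of 6 positive, median 1.64, 3 at an unadjusted p under 0.05) had the largest median log2 fold changes of the marker lists, and 0 of either passed (edgeR). Their summed levels were 72.8 to 182.7 CPM in sgRosa and 38.2 to 531.3 CPM in sgEgfr libraries for microglia, and 406.9 to 1071 and 589.2 to 4053 CPM for red blood cells, both highest in sgEgfr replicate 2, the library with the highest Pcdh15. The part of library makeup in the values of these genes was not tested. With each library's neuronal marker mean as a covariate, the log2 fold change was 0.0315 for Pcdh9, -0.56 for Pcdhac2 and -0.20 for Pcdh7. Other values grew in size with the same sign, among them Pcdh15 (1.20), Pcdh8 (-0.84), Pcdhb22 (0.89) and Pcdh1 (0.56). No protocadherin gene passed with the covariate (edgeR, smallest adjusted p = 0.3497, for Pcdh8). Pcdh15 and Pcdh8 had an unadjusted p under 0.05 in that fit, as had 1545 of all 13159 tested genes (edgeR).

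**Figure D5:**
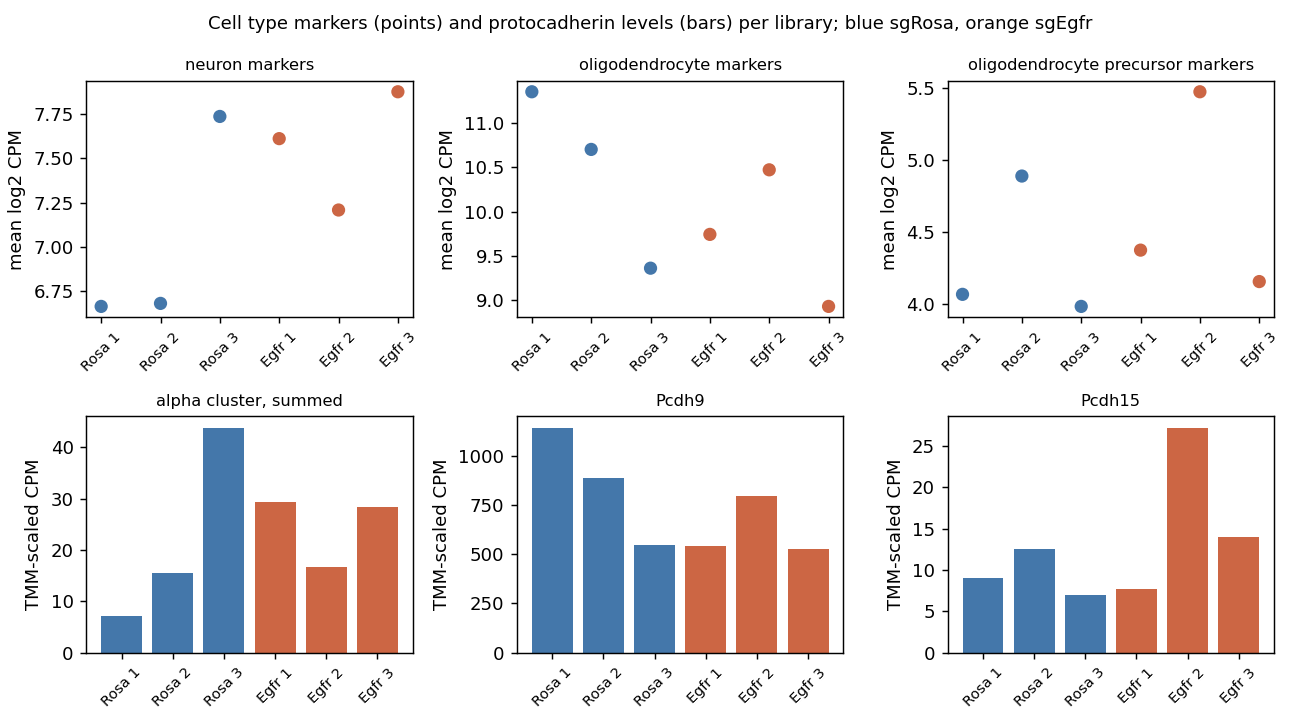
Mean log2 CPM of neuronal, oligodendrocyte and precursor markers in each library (points, upper row) and the level in CPM of the alpha cluster sum, Pcdh9 and Pcdh15 in the same libraries (bars, lower row), with sgRosa in blue and sgEgfr in orange. The alpha sum is 7.03 to 16.7 CPM in the 3 libraries with the lowest neuronal markers and 28.4 to 43.8 CPM in the others.

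Genes that act with protocadherins were read from lists of textbook members. Of 17 tested regulators of promoter choice, which hold CTCF, cohesin and its loading and release factors and DNA methyltransferases, 10 had positive and 7 negative log2 fold changes, with a median of 0.03, and 0 passed. The smallest p belonged to Wapl, which releases cohesin from chromatin, with 107, 143 and 99.7 CPM in sgRosa and 190, 216 and 202 CPM in sgEgfr libraries. All sgEgfr values lay above all sgRosa values, and the log2 fold change was 0.80 ± 0.24 SE (edgeR, adjusted p = 0.781). Ctcf itself had 66.1, 81.0 and 105 CPM in sgRosa and 125, 121 and 109 CPM in sgEgfr libraries, again without overlap (log2 fold change 0.49 ± 0.24 SE, edgeR, adjusted p = 0.781). Pds5b, a regulator of cohesin, had a value of 0.43 on the same scale (adjusted p = 0.798). These genes were named for the smallest p of the list, a choice that favours groups without overlap. Over all tested genes, 5.8% were higher in sgEgfr without overlap.

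Of 21 tested signalling partners, which include kinases bound by the constant domains and the WAVE complex, 15 had positive and 6 negative log2 fold changes, with a median of 0.13, and 0 passed. Marcks, an actin-binding substrate of protein kinase C whose phosphorylation gamma protocadherins restrain, had 150, 198 and 292 CPM in sgRosa and 413, 519 and 509 CPM in sgEgfr libraries, groups that did not overlap (log2 fold change 1.17 ± 0.32 SE, edgeR, adjusted p = 0.781). Marcks too was named for the smallest p of its list, and 5.8% of all tested genes were likewise higher without overlap. The kinase genes Fyn and Ptk2 had log2 fold changes of 0.45 (adjusted p = 0.787) and -0.40 (adjusted p = 0.798).

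Other cadherins and the catenins that bind them also gave no call. Among 17 tested classical cadherins and catenins, 8 had positive and 9 negative log2 fold changes, with a median of -0.04, and the smallest p values belonged to Cdh11 (-0.56), Ctnnd2 (0.56) and Cdh12 (0.87). Among 10 tested large atypical cadherins, 7 were positive and 3 negative, with a median of 0.26, and Fat4 stood at -0.57, Fat3 at 0.61 and Clstn3 at 0.49. In these 4 lists 2 of 65 tested genes, Wapl and Marcks, had an unadjusted p under 0.05, against 6.16% of all tested genes, and 0 passed after adjustment over all genes.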

How the data were processed

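The authors deposited raw read counts per gene (whole numbers, no normalization), 1 table per library and a series table whose 6 matching columns were identical. The series table has 3 further columns that match no sample and were not used. Per the submitters' processing notes, fastp 0.23.2, STAR 2.7.5c, featureCounts 2.0.1 and edgeR 3.42.4 were used with mm10. The annotation, strand setting and treatment of reads that fit several genes are not given in the sources used here. Cells were dissociated with papain, enriched with a magnetic adult neuron kit, and 5 ng of RNA was made into each library, per the labels' protocols. Counts carry no molecular identifiers, so the Wilson interval and the 3-count level cover counting error only. The edgeR intervals also include the fitted spread between libraries.

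All genes were fitted together with edgeR 4.0.16 in R 4.3.3 (TMM scaling, filterByExpr with a minimum count of 10 and a minimum total count of 15, robust quasi-likelihood test, Benjamini-Hochberg adjustment over 13159 genes, threshold 0.05). The code was also run on simulated counts in which only genes of higher count were changed, with the same spread for all genes. That run does not cover the low counts of most clustered genes or the differences in library makeup. Each standard error is the log2 fold change over the root of its F statistic, with 4 residual degrees of freedom before moderation and a common coefficient of variation of 0.355. Alternatives used other scalings and filters, DESeq2 1.42.0, limma 3.58.1, a replicate block, each library left out, and library makeup. The limma fit was voom with a quality weight for each library, so that libraries did not count equally in it. All pairs of libraries within a group differed by more than sampling noise (lowest chi-square per degree of freedom 9.53).

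Values are given for the C-type isoforms, for all tested nonclustered genes, and in each cluster for the 3 tested genes with the smallest unadjusted p and the 2 with the highest mean CPM. From each pathway list up to 3 genes with the smallest unadjusted p are named. A further list is not reported here. The members, lists and alternatives were chosen with earlier results of these data known. Lengths and positions are from GENCODE vM21 on GRCm38, the assembly that mm10 names, except where a RefSeq length is named. The readthrough genes are from RefSeq.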

Additional observations from a re-analysis of the deposited data

How the results depend on the processing

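In 17 alternatives 0 protocadherin genes passed, and the smallest adjusted p was 0.134 (edgeR, Pcdh7 without sgRosa replicate 3). Over all genes the smallest adjusted p of that fit was 0.117 (edgeR). The number tested ranged from 21 (stricter filter) to 66 (no filter), and low counts limit most clustered genes. Over all genes DESeq2 called 31 higher and 2 lower against 0 in edgeR. Deviations of libraries with the same replicate number correlated at -0.03, 0.48 and 0.28, against -0.45 to 0.21 for unlike numbers. These values do not settle whether the numbers pair the libraries. The fit with the replicate block called 0 genes, as did the fit without it. At an unadjusted p under 0.05 the block fit had 1316 genes and the fit without it 811 (edgeR). With the block the smallest protocadherin adjusted p was 0.506 (edgeR). Of 384 single-gene values, 344 kept their direction and 40 reversed. Causes of the reversals were not tested.

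Without both choroid plexus libraries the median was 0.16 for beta and 0.40 for nonclustered genes, and the log2 fold changes of Pcdhb7 (0.50), Pcdhb20 (0.26), Pcdhgc3 (-0.12), Pcdh8 (0.55) and Pcdh1 (-0.0737) changed sign. Larger in size with the same sign were Pcdhac2 (0.73), Pcdhgc5 (1.84), Pcdh7 (1.04), Pcdh19 (0.76), Pcdh20 (0.96), Pcdh11x (0.40), Pcdhgb7 (-0.71) and Pcdh18 (-0.93). Also larger were Pcdh9 (-0.61), Pcdh15 (0.96), Pcdhgc4 (0.79), Pcdhb14 (-0.40), Pcdh17 (0.16) and Pcdh10 (0.19). Smaller with the same sign were Pcdhb22 (0.16), Pcdhb19 (-0.45) and Pcdhgb6 (-0.60). The gamma median was -0.036 by limma-voom and -0.0402 with the neuronal marker covariate. With that covariate the beta median was -0.23, and reversed values were Pcdhac2 -0.56, Pcdhgc5 -0.17, Pcdh17 -0.12, Pcdh9 0.0315, Pcdh18 0.27, Pcdh7 -0.20 and Pcdh19 -0.34. Other reversals were Pcdhac2 -0.0151 by library size only, Pcdhb7 0.0014 by RLE scaling, 0.0216 by the stricter filter, 0.11 by limma-voom and 0.0323 with the block, Pcdh8 0.0638 and Pcdh11x -0.47 by limma-voom, Pcdh11x -0.0608 with the block, and Pcdh17 -0.011 by upper-quartile scaling.

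When 1 library at a time was left out, the beta median ranged from -0.16 to 0.0786 and the gamma median from -0.16 to 0.15, the log2 ratio of sums ranged from -0.25 to 1.15 for alpha, -0.13 to 0.11 for beta, -0.0847 to 0.20 for gamma and -0.37 to -0.10 for nonclustered genes, and the log2 fold changes of 10 named genes changed sign in at least 1 case. Their ranges were -0.37 to 1.04 for Pcdhac2, -0.37 to 0.37 for Pcdhb7, -0.22 to 0.15 for Pcdhb20, -0.31 to 1.19 for Pcdhgc3, -0.56 to 0.46 for Pcdh8, -0.0838 to 0.17 for Pcdh17, -0.0538 to 0.55 for Pcdh1, -0.81 to 0.20 for Pcdh18, -0.32 to 0.45 for Pcdh11x and -0.0535 to 0.73 for Pcdh19.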
